A study of Rattus norvegicus with 141 samples.

Results

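C1qa, C1qb, C1qc, Aif1, Csf1r, Cd163, Trem2, Gpr34, Clec4f and Vsig4 are 10 genes by which tissue macrophages, and the Kupffer cells of the liver, are usually recognised. They were taken by symbol from 3 tables of 30562 genes each, in which every one of the 10 has a single row. The tables hold polyadenylated RNA from whole liver, stomach and duodenum of rats given microplastics, and the comparisons ask what each dose changed, in which tissue and in which sex. All animals were adult, wild-type Sprague-Dawley rats on standard chow. The controls received vehicle, the low-dose groups 5 mg/kg and the high-dose groups 50 mg/kg. There were 141 libraries (46 liver, 48 stomach and 47 duodenum). Every tissue had male and female groups at each of the 3 dose levels, with 8 libraries a group, except 7 for the female duodenum controls and 6 for the high-dose female livers. The labels do not say that libraries came from separate animals, so each p-value measures the spread between libraries, which may be partly technical. They place each library in batch 1, 2 or 3 without saying what a batch was.

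Macrophages live in every organ, take up particles and dead cells, and keep their identity through survival signals from their surroundings. Kupffer cells are the macrophages of the liver sinusoids, where they clear particles and complement-coated material from blood arriving from the gut. Macrophages are also a main source of C1q, the recognition part of the classical complement pathway, which is built from the products of C1qa, C1qb and C1qc together. Among the other genes, Csf1r encodes the receptor for the growth factors CSF1 and IL-34, on which most macrophages depend. Aif1 encodes IBA1, an actin-binding protein, and Cd163 the scavenger receptor for haemoglobin bound to haptoglobin. Trem2 encodes a lipid-sensing receptor that signals through the adaptor made from Tyrobp, and Gpr34 a receptor for lysophosphatidylserine. Clec4f encodes a C-type lectin of rodent Kupffer cells, and Vsig4 a receptor for C3 fragments.

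The 3 C1q genes lie side by side on chromosome 5, in the order C1qb, C1qc, C1qa, between Ephb2 and Epha8, in the RefSeq annotation of the rat assembly GRCr8. The counts were made on the build mRatBN7.2, so neighbours and promoters are given from GRCr8 for the genes only. Promoter windows of 300 bases, from 250 before to 50 after the annotated start, matched 8 of the 10 genes (C1qc and Aif1 had no entry). The letters GAGGAA, a core that the macrophage factor PU.1 can bind, were searched on both strands. They occur in 4 of the 8 windows (C1qb, Trem2, Gpr34 and Csf1r) and in 27.6% of all 33469 windows. The 250 bases before the start are printed for C1qb, from the C1q cluster, and for Trem2 and Gpr34, which passed the test in stomach. Capitals mark GAGGAA, or TTCCTC where it lies on the opposite strand. All 3 genes are on the minus strand, and each sequence reads 5′ to 3′ towards the gene, at chr5:154407828-154408077, chr9:20151780-20152029 and chrX:11785837-11786086 of GRCr8.
C1qb: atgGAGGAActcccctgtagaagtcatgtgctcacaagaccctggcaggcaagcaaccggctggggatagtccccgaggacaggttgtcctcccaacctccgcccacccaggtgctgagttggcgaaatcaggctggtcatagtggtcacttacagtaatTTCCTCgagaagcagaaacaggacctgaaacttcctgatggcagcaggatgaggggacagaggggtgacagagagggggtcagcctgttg
Trem2: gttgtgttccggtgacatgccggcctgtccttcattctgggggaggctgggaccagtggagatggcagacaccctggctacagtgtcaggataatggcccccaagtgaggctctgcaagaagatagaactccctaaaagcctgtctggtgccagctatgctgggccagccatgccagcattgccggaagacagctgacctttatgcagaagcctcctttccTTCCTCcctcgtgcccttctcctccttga
Gpr34: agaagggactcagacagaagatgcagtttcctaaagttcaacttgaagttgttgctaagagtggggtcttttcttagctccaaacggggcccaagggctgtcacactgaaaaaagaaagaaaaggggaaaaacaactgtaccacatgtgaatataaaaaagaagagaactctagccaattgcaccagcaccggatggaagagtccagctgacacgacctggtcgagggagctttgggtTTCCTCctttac
Counted back from the start, the motif begins at -247 and -90 in C1qb, at -29 in Trem2 and at -12 in Gpr34. Other motifs were searched on both strands in the same windows. TGCTGA, a core of MAF recognition elements, lies in 4 of the 8 windows (C1qa, C1qb, Gpr34 and Vsig4) and in 18.4% of all windows. TGACTCA, the AP-1 site, and CACGTG, the E-box bound by MITF and TFE factors, lie in 0 of the 8 and in 4.63% and 6.42% of all windows. These matches describe letters in a window and say nothing about binding.

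Library totals ran from about 6153370 to 23717000 estimated counts for liver, 4947830 to 23940200 for stomach and 5470040 to 25503800 for duodenum. Levels are given in CPM, the usual scale on which every library's counts are brought to the same total, and only 1 gene is compared with itself across samples, since gene lengths were not used. Tissue labels matched marker genes: 9 hepatocyte genes summed to 103113 CPM or more in every liver library and 5 parietal cell genes to 5461 CPM or more in every stomach library. Intestinal enterocyte genes, 6 of 7 being in the tables, summed to 1662 CPM or more in every duodenum library. Pancreatic acinar genes, 5 of 6 in the tables, summed to between 0.188 and 35650 CPM in duodenum and between 9.70 and 6403 CPM in stomach, and to 2.31 CPM at most in liver.

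Both Kupffer cell receptors were almost confined to liver in the vehicle controls. Clec4f ranged from 98.0 to 290 CPM over 16 liver controls, with a median of 137. It reached at most 0.216 CPM over 16 stomach controls and 0.239 CPM over 15 duodenum controls. No gut library came near the lowest liver library. Pooled over controls, Clec4f had 29322 counts in liver, 4 in stomach and 11 in duodenum. On library totals the liver level was therefore 5829 times the stomach level. The exact 95% interval, from 2276 to 21394, covers counting error only. With the trimmed-mean scaling of the fit described below, the log2 difference was 13.23 ± 0.29 (SE). Vsig4 ranged from 4.57 to 27.5 CPM in liver controls. It had 0 counts in the pooled stomach controls. Against a floor of 0.0199 CPM (3 counts over the group), its liver level was 805 times higher. By the exact 95% interval used for Clec4f, the ratio was at least 654. In duodenum controls it had 1 count. Both genes passed the filter on low counts in the tissue comparison through liver alone and so had to differ. In the gut tables they stayed under the filter and were not tested.

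Trem2 and Gpr34 had the opposite distribution. Trem2 had 2 counts in the pooled liver controls, 149 in stomach and 39 in duodenum, which is 0.0106, 0.989 and 0.240 CPM. On library totals the liver-to-stomach ratio of 0.0107 has a counting interval from 0.00128 to 0.0392. Stomach had 4.12 times the duodenum level (interval 2.88 to 6.02). Gpr34 spanned 0 to 0.697 CPM in liver controls (median 0.407), 1.52 to 5.86 in stomach controls (median 2.64) and 2.22 to 8.32 in duodenum controls (median 4.62). No liver control reached the lowest gut control. In an edgeR quasi-likelihood fit over the 47 controls with trimmed-mean (TMM) scaling, adjusted by Benjamini and Hochberg over 16033 genes, Gpr34 was lower in liver than in stomach by a log2 difference of -1.81 ± 0.21 (SE, adjusted p = 1.066e-10). Against duodenum it was -2.57 ± 0.21 (adjusted p = 1.90587e-15). Gpr34 passed the filter on low counts in this fit through the gut libraries alone. Its differences from liver therefore had to appear, and their p-values add no support. Stomach was below duodenum by -0.76 ± 0.17 (adjusted p = 8.79393e-05). That difference was -1.06 ± 0.24 in male controls alone and -0.47 ± 0.24 in female controls alone, where it was not called (adjusted p = 0.0855).

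The C1q genes, Aif1 and Csf1r were read in all 3 tissues, and their order depends on the scaling between liver and duodenum. C1qa spanned 50.3 to 133 CPM in liver controls (median 79.9), 19.8 to 56.6 in stomach controls (median 36.8) and 52.8 to 168 in duodenum controls (median 94.9). Liver and duodenum overlapped throughout, and stomach overlapped both only at its upper end. Stomach was lower than duodenum for C1qa (log2 difference -1.30 ± 0.11), C1qb (-1.28 ± 0.12), C1qc (-1.13 ± 0.12), Aif1 (-1.43 ± 0.12) and Csf1r (-0.49 ± 0.15), with adjusted p from 2.46379e-14 for C1qa to 0.00256 for Csf1r. Each sex alone gave values of unequal size. C1qa had -1.80 ± 0.18 in males and -0.79 ± 0.12 in females, and Aif1 -1.83 ± 0.19 and -0.99 ± 0.15. Csf1r had -0.81 ± 0.23 in males (adjusted p = 0.00311) and -0.12 ± 0.16 in females, where it was not called (adjusted p = 0.524). Called at an adjusted p under 0.05 in this contrast, lower or higher, were 76.9% of all genes. Liver against stomach was 2.19 ± 0.11 for C1qa and 1.30 ± 0.15 for Csf1r, where 82.8% of genes were called. On library totals without TMM the Csf1r difference was 0.26 (adjusted p = 0.133). Liver against duodenum (82% of genes called) was positive with TMM, from 0.50 ± 0.12 for Aif1 to 0.88 ± 0.11 for C1qa. In male controls alone Aif1 had 0.15 ± 0.18, C1qb 0.32 ± 0.18, C1qc 0.40 ± 0.18 and Csf1r 0.29 ± 0.23, none of them called, and in female controls alone all 5 were called, from 0.91 ± 0.15 for Aif1 to 1.42 ± 0.16 for Csf1r. On library totals all 5 turned, from -0.22 for C1qa to -0.60 for Aif1. TMM factors averaged 0.606 and 0.621 in the liver control groups and 1.27 to 1.31 in the gut groups. The median of all genes for liver against duodenum moved from -0.13 to -1.21 without TMM.

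Cd163 was higher in liver on either scale. Liver controls spanned 9.65 to 90.9 CPM (median 50.0), stomach controls 10.4 to 29.4 and duodenum controls 11.1 to 45.6. The 4 lowest liver libraries, all male, lay below the highest stomach library. The log2 difference was 2.24 ± 0.19 against stomach and 2.27 ± 0.19 against duodenum with TMM, and the pooled CPM ratios were 2.59 and 2.53. Stomach against duodenum was 0.03 ± 0.19 and not called (adjusted p = 0.905), a mean over sexes with opposite signs. It was 0.40 ± 0.16 in female controls alone (adjusted p = 0.0283, called) and -0.28 ± 0.30 in male controls alone (adjusted p = 0.421). The order of Cd163 was thus liver above the 2 gut tissues. A further 10 Kupffer cell genes were listed, of which 9 were tested. Of these, 8 were higher in liver against stomach and 8 against duodenum, where 38.8% and 36.7% of all genes were higher. Their medians were 3.22 and 2.19, beside an all-gene median of -0.08 and -0.13. The list names genes of liver macrophages, so such a count was likely beforehand and is no independent support. Cd5l, a macrophage-secreted protein, was 10.20 ± 0.45 above stomach, and Marco, a scavenger receptor, was at 0 in every stomach group of the controls.

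**Figure D1:**
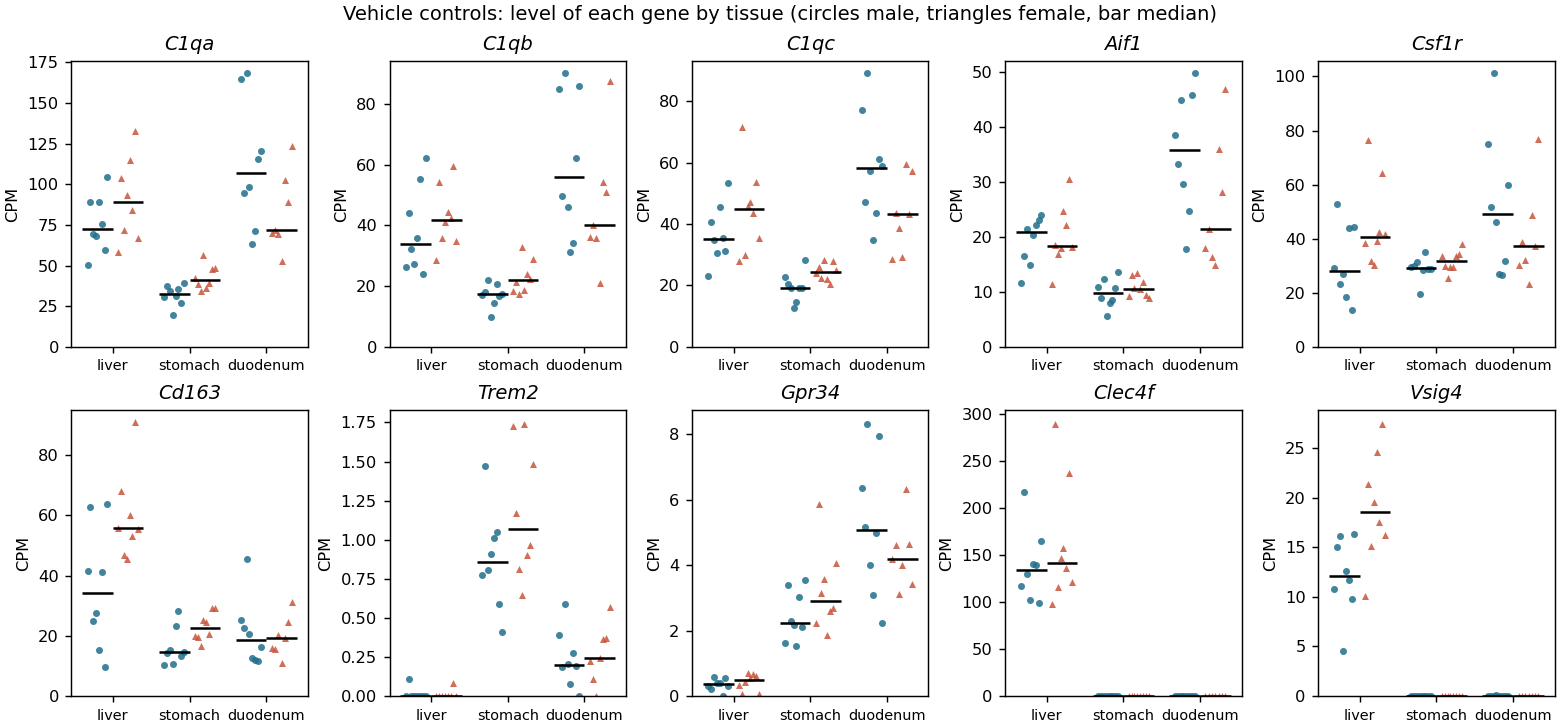
Level in CPM (linear axis from 0) of each gene in every vehicle control library, by tissue; circles are males, triangles females, and bars are group medians. Clec4f and Vsig4 lie near 0 in stomach and duodenum, Trem2 near 0 in liver, while C1qa, C1qb and C1qc overlap between liver and duodenum.

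The proportions of the 3 C1q genes were set side by side in each tissue. The C1qb level was 0.489 ± 0.087 (SD, n = 16) of the C1qa level in liver controls, 0.536 ± 0.068 in stomach and 0.538 ± 0.081 (n = 15) in duodenum. The C1qc level was 0.488 ± 0.067, 0.598 ± 0.086 and 0.528 ± 0.058 of the C1qa level, with the highest mean in stomach. The ratios overlapped between tissues library by library, and their differences were not tested. These shares are of counts, not corrected for transcript length. Leading transcript shares of C1qa, C1qc, Aif1, Csf1r and Cd163 were compared between tissues in 15 two-sided permutation tests of 100000 resamples, and none passed adjustment (smallest adjusted p = 0.172).

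In stomach, Trem2 and Gpr34 rose at the high dose over both sexes. Trem2 was 0.407 to 1.74 CPM in the 16 controls (median 0.937) and 0.696 to 2.53 in the 16 high-dose libraries (median 1.81). Of the high-dose libraries 9 lay above every control, and 15 above the control median, so the groups overlapped at their edges. The log2 change was 0.80 ± 0.18 (1.74-fold, edgeR quasi-likelihood test, adjusted p = 0.0216 over 15140 genes). Gpr34 was 1.52 to 5.86 CPM in controls (median 2.64) and 2.23 to 7.80 at the high dose (median 4.15), with 13 of 16 above the control median and 3 above every control. Its log2 change was 0.65 ± 0.14 (1.57-fold, adjusted p = 0.0216). In all, 2 of the 8 tested genes rose, where 4.49% of all genes were called, 2.65% higher and 1.84% lower. Low- and high-dose comparisons of a tissue share their controls. The other 6 had changes from 0.09 for C1qb to 0.35 for Aif1 (adjusted p = 0.0635) and were not called. The median of the 8 was 0.24 and that of all genes -0.01. Fewer or more macrophages, and less or more RNA in each, cannot be told apart in bulk tissue.

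**Figure D2:**
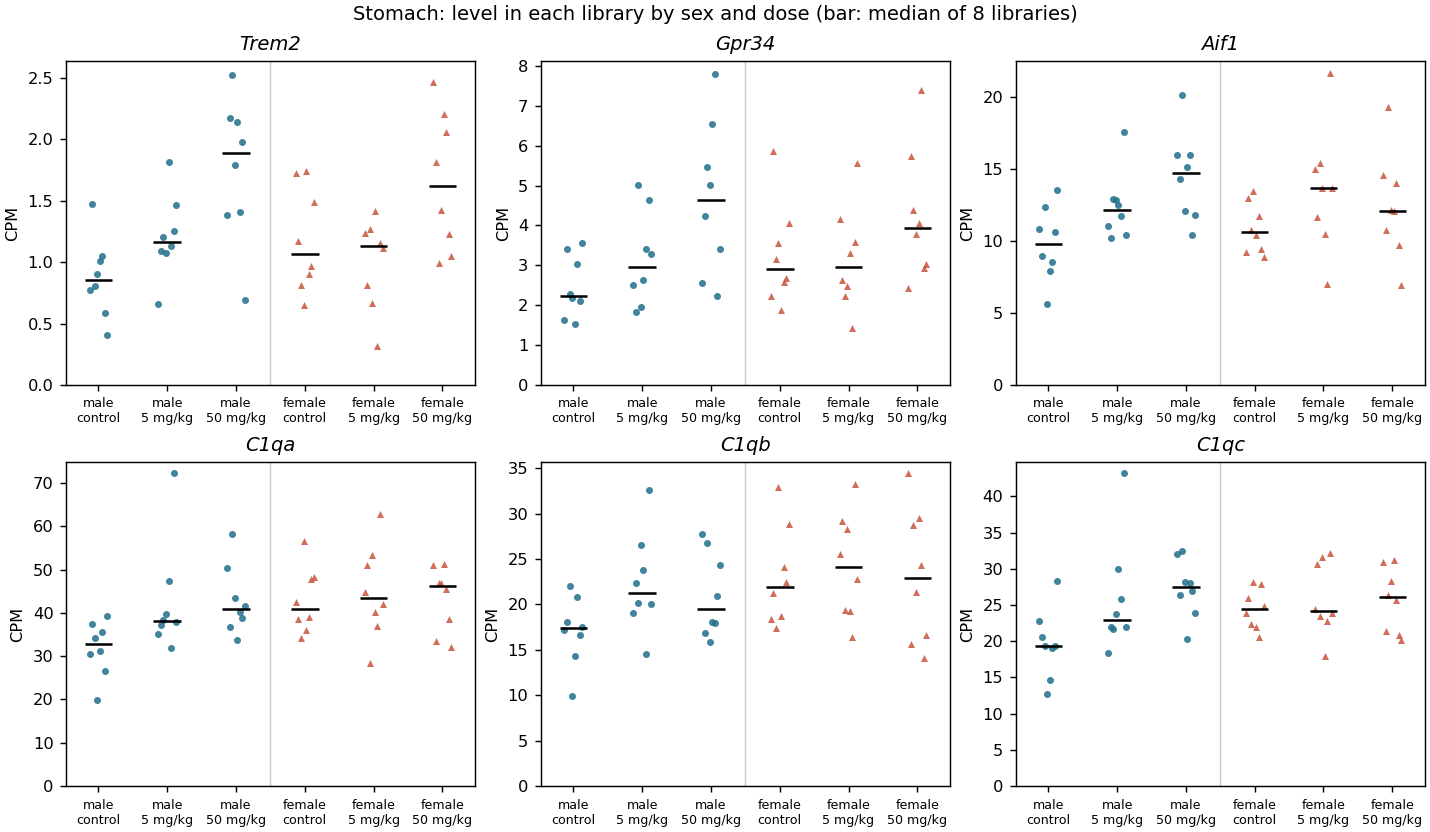
Level in CPM (linear axis from 0) of 6 genes in each stomach library by sex and dose, with bars at the median of 8 libraries. High-dose male medians exceed male control medians in all 6 panels, and Trem2 and Gpr34 show the widest separation with overlap at the edges.

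The high-dose change was called within males. There 5 of the 8 tested genes rose, against 4.95% of all genes that rose and 2.11% that fell. Trem2 was 0.407 to 1.47 CPM in the 8 male controls (median 0.855) and 0.696 to 2.53 in the 8 high-dose males (median 1.89). These levels rest on 4 to 13 and 10 to 25 counts a library. Of the high-dose males 5 exceeded every control, and the log2 change was 1.04 ± 0.25 (2.06-fold, adjusted p = 0.0106). Gpr34 was 1.52 to 3.56 CPM in male controls (median 2.23) and 2.23 to 7.80 at the high dose (median 4.63). Again 5 high-dose males exceeded every control, and 4 controls lay below every high-dose male. Its log2 change was 0.94 ± 0.20 (1.92-fold, adjusted p = 0.00699).

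Of the complement genes, C1qa and C1qc rose in these males. C1qa was 19.8 to 39.3 CPM in controls (median 32.8) and 33.8 to 58.1 at the high dose (median 41.0), and every high-dose male lay above the control median. The log2 change was 0.44 ± 0.14 (adjusted p = 0.0453). C1qc was 12.8 to 28.3 CPM in controls (median 19.3) and 20.3 to 32.5 at the high dose (median 27.5), a log2 change of 0.50 ± 0.14 (adjusted p = 0.0271). C1qb had 0.26 ± 0.14 (adjusted p = 0.224). Although C1qb and C1qa products form 1 complex, the test called only C1qa and C1qc, and the difference between the 3 was not tested. Aif1, the actin-binding protein gene, was 5.62 to 13.5 CPM in controls (median 9.80) and 10.4 to 20.1 at the high dose (median 14.7), with 5 of 8 high-dose males above every control. It rose by 0.54 ± 0.16 (adjusted p = 0.0328). Csf1r (0.22 ± 0.12) and Cd163 (0.23 ± 0.21) were not called.

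Within the batches the male changes were of like size for most genes. Trem2 was 1.29 in batch 1 (2 high-dose and 3 control libraries) and 1.21 in batch 2 (4 and 4), Gpr34 1.07 in each, C1qc 0.54 and 0.50, and C1qa 0.50 and 0.44. Aif1 was 0.20 in batch 1 and 0.93 in batch 2. None was called within a batch, where the smallest adjusted p was 0.082 (Trem2 and Aif1 in batch 2). Batch 3 held 2 high-dose males and 1 male control, too few for a value.

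The share of counts from ribosomal protein genes moved with the male high dose. It was 1.81% to 3.01% in male controls (median 2.13%) and 2.13% to 5.58% in high-dose males (median 3.98%). With this share as a covariate, no member was called over both sexes or in males, and the male log2 changes were 0.95 for Trem2, 0.51 for Gpr34, 0.20 for C1qa, 0.15 for C1qc and 0.10 for Aif1. No member was called either with 3 surrogate variables or without the batch term. Leaving out high-dose male replicate 4 left no call over both sexes (adjusted p = 0.0544 for Trem2 and Gpr34). With any 1 library left out, all-gene calls over both sexes ran from 4 to 1465, and the Trem2 change from 0.72 to 0.86. In males, Trem2 and Gpr34 were called whichever of the 48 libraries was left out, while C1qa was lost in 11, Aif1 in 7 and C1qc in 4 of the 48.

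High-dose females had no called member. Trem2 was 0.648 to 1.74 CPM in female controls (median 1.07) and 0.997 to 2.46 at the high dose (median 1.62), a log2 change of 0.55 ± 0.25 (adjusted p = 0.848). Gpr34 had 0.37 ± 0.19, and C1qa, C1qb and C1qc lay between -0.09 and 0.04. By edgeR 0% of all genes were called in these females, with 1 of the 8 members at an unadjusted p under 0.05. Neither DESeq2 nor limma voom called a member there. The difference between the sexes in the high-dose change was negative for all 8, from -0.57 ± 0.27 for Gpr34 to -0.08 ± 0.29 for Cd163. None was called (0% of all genes, smallest adjusted p = 0.629, 3 with an unadjusted p under 0.05, 0 by DESeq2 and by limma voom), so a sex difference in the response was not shown.

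**Figure D3:**
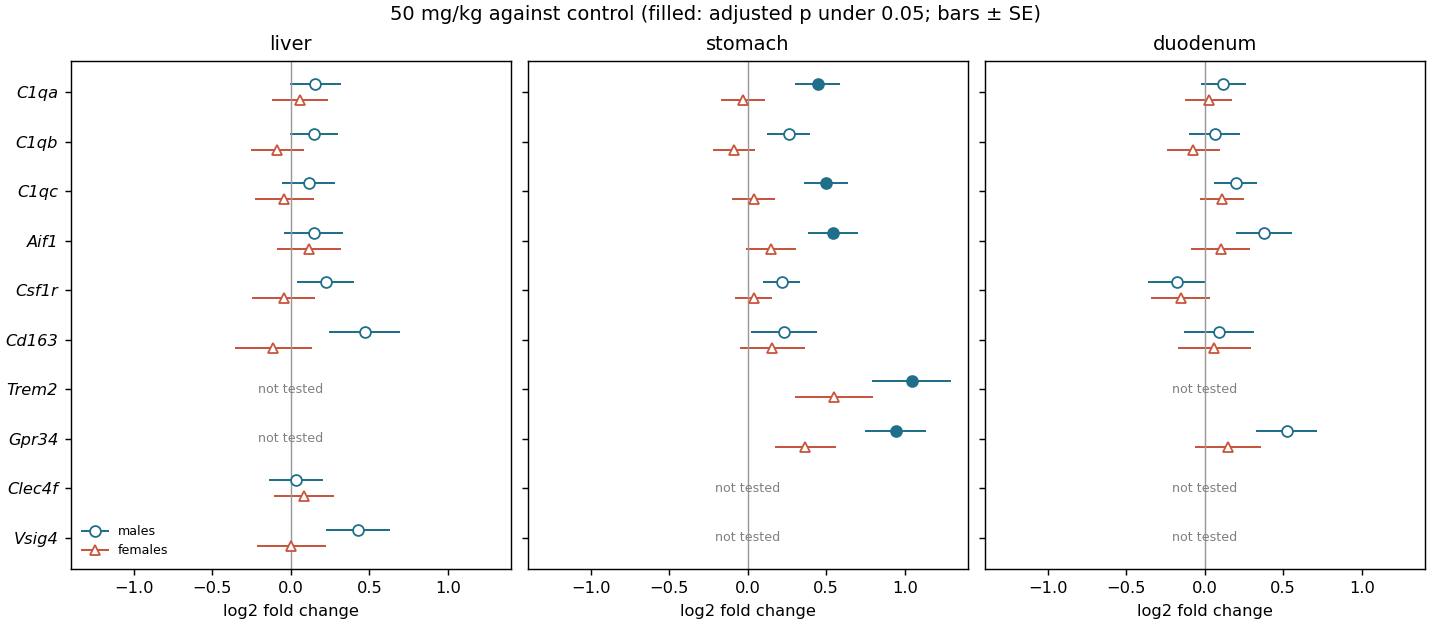
Log2 change at 50 mg/kg against control with ± SE bars for males (circles) and females (triangles) in each tissue; filled symbols have an adjusted p under 0.05. The filled symbols are C1qa, C1qc, Aif1, Trem2 and Gpr34 in male stomach, and none in liver or duodenum.

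The low dose called no member in stomach, and 0% of all genes in that contrast. Changes over both sexes ran from -0.01 for Cd163 to 0.26 for Aif1, with 2 members at an unadjusted p under 0.05 and 0 called by DESeq2 or limma voom. In low-dose males all 8 were positive, with a median of 0.34, and in low-dose females 4 were positive, with a median of -0.01. Neither sex had a call by edgeR, DESeq2 or limma voom (3 members in males and 0 in females at an unadjusted p under 0.05). Between the high and the low dose, Trem2 differed by 0.65 ± 0.17 (adjusted p = 0.0587) and Gpr34 by 0.47 ± 0.14 (adjusted p = 0.078), and C1qa by 0.00 ± 0.10. No member was called by edgeR, where 0.614% of all genes were higher and 0.0925% lower at the high dose. The counts were 2 by DESeq2, 1 by limma voom and 2 at an unadjusted p under 0.05.

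In the high-dose male stomach a few other macrophage genes rose, where 4.95% of all genes rose and 2.11% fell. Of 24 further macrophage genes 22 were tested, 3 rose and 0 fell, with a median of 0.23 beside an all-gene median of -0.01. The 3 were the lysozyme gene Lyz2 (0.70 ± 0.16), the antibody receptor gene Fcgr1a (0.63 ± 0.15) and Ms4a7 (1.19 ± 0.32). Of 8 ligands and partners of these receptors, Tyrobp rose (0.85 ± 0.23, adjusted p = 0.0203). The Csf1r ligands Csf1 (0.13 ± 0.11) and Il34 (0.30 ± 0.17), and the C1-complex protease genes C1r (0.13 ± 0.10) and C1s (0.26 ± 0.11), did not pass the test; these 4 were named after their values were seen. Of 10 Kupffer cell genes 7 were tested and none passed, Nr1h3 having the smallest p (0.29 ± 0.14, adjusted p = 0.182).

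Among markers of other cell types, a few genes passed the test in the same males, where 4.95% of all genes rose. Of 7 monocyte and macrophage chemokine genes 5 were tested and 3 rose, Ccl6 (0.81 ± 0.19), Ccl2 (0.97 ± 0.26) and Ccl24 (0.64 ± 0.21). Their summed level was 27.9 to 52.0 CPM in male controls and 30.5 to 63.9 in high-dose males. Of 9 monocyte and neutrophil genes 5 were tested and Plac8 rose (1.43 ± 0.37); they summed to 15.7 to 26.0 and 22.4 to 55.9 CPM. Of 6 mast cell genes Fcer1a rose (1.05 ± 0.30; sums 23.7 to 109 and 53.4 to 148 CPM). Of 5 eosinophil genes 2 were tested and Ccr3 rose (adjusted p = 0.031; sums 2.63 to 8.85 and 3.62 to 13.7 CPM, with Epx at 0). Of 8 dendritic cell genes 6 were tested and none passed, Flt3 having the smallest p (0.35 ± 0.17, adjusted p = 0.182; sums 10.0 to 14.1 and 8.93 to 18.0 CPM). Of 11 T and NK cell genes 5 were tested and none passed, with positive values for all 5 (sums 5.89 to 10.1 and 7.79 to 16.1 CPM). Of 5 parietal cell genes Esrrg fell (-0.44 ± 0.13; sums 7043 to 13802 and 6620 to 10430 CPM). Fabp2 rose among 3 tested enterocyte genes (sums 79.4 to 156 and 103 to 157 CPM), and Serpina1 fell among 6 tested hepatocyte genes (sums 134 to 224 and 133 to 194 CPM). The part of these cells in the member changes was not tested.

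In liver, none of the 8 tested genes was called at either dose. Clec4f was 98.0 to 290 CPM in controls (median 137), 99.3 to 279 at the low dose (median 143) and 99.6 to 233 at the high dose (median 153). Its ranges overlapped almost whole. Over both sexes the high-dose changes ran from 0.03 for C1qb to 0.21 for Vsig4 (SE 0.11 and 0.15), and the low-dose changes from 0.03 for Clec4f to 0.15 for C1qb. By edgeR 0% of 13130 genes were called in each of these contrasts. None of the 8 reached an unadjusted p under 0.05, and neither DESeq2 nor limma voom made a call. In high-dose males Cd163 had 0.47 ± 0.22 and Vsig4 0.42 ± 0.20, the 2 members with an unadjusted p under 0.05 there, and neither was called (adjusted p = 0.924; 0% of all genes). Trem2 and Gpr34, the genes that rose in stomach, were under the filter in liver. A fit over all libraries, added after the data were seen, compared the high-dose change between tissues. EdgeR called 0 members in each pair of tissues, with none at an unadjusted p under 0.05 (0, 8 and 39 of all genes were called), and no other tool was run, so a response particular to stomach was not shown.

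Between the sexes, Cd163 and Csf1r were higher in female than in male control livers. In controls Cd163 was 9.65 to 63.9 CPM in males (median 34.3) and 45.4 to 90.9 in females (median 55.7). All 8 females lay above the male median and 2 above every male. The log2 difference, female minus male, was 0.81 ± 0.23 (1.76-fold, adjusted p = 0.00854). Csf1r was 13.6 to 52.7 CPM in males (median 27.9) and 30.3 to 76.5 in females (median 40.5), a difference of 0.57 ± 0.19 (1.48-fold, adjusted p = 0.0246). These 2 of 8 were called, where 22.8% of all genes were called, 10.5% higher and 12.3% lower in females. Vsig4 had 0.55 ± 0.21 (adjusted p = 0.054), and the other 5 lay between 0.10 and 0.29. Within batch 1 the Cd163 difference was 0.14 and within batch 2 it was 1.54; for Csf1r these were 0.25 and 0.88. The batch 1 groups held 2 males and 4 females, and batch 3 held 2 male and 0 female controls. Csf1r was not called without any 1 of female control replicates 2 and 7 or male control replicates 1 and 7 (adjusted p up to 0.102).

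At the low dose a different set was called between the sexes, in a comparison chosen after the data were seen. Aif1 was 12.9 to 25.5 CPM in males (median 15.9) and 18.0 to 44.0 in females (median 24.0), a difference of 0.75 ± 0.19 (adjusted p = 0.00339). Clec4f was 99.3 to 195 in males (median 114) and 119 to 279 in females (median 193), a difference of 0.67 ± 0.18 (adjusted p = 0.00472). For both, every female exceeded the male median. C1qc (0.65 ± 0.18), C1qb (0.59 ± 0.16), C1qa (0.58 ± 0.17) and Vsig4 (0.59 ± 0.21) were also called. That makes 6 of 8, where 12.4% of all genes were higher and 11.9% lower. Cd163 (0.16 ± 0.23) and Csf1r (0.22 ± 0.19), the genes called in controls, were not. Vsig4 had a difference of like size in controls (0.55 ± 0.21, adjusted p = 0.054). Its low-dose call was lost in 8 of 46 fits with 1 library left out, and the other low-dose calls in 0. Within batches 1 and 2 the Clec4f difference was 0.65 and 0.67, and that of Aif1 0.57 and 1.03. Batch 3 held 2 males and 0 females at this dose. The ribosomal protein share was 0.766% to 1.39% in these males and 0.873% to 2.58% in these females, and with it as a covariate, as with 3 surrogate variables, 3 members were called. At the high dose no member was called (0.05 to 0.30; 7.65% of all genes higher, 7.95% lower; 0 members at an unadjusted p under 0.05, 0 by DESeq2 or limma voom). The change of the sex difference between control and low dose was called for no member, where 7.84% of all genes were called. This change was positive for 6 members, Aif1 having the highest value, 0.65 ± 0.26 (adjusted p = 0.0888). For Cd163 (-0.66 ± 0.32, adjusted p = 0.148) and Csf1r (-0.34 ± 0.26) it was negative. Limma voom called 2 members and DESeq2 0, with 3 at an unadjusted p under 0.05.

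Other macrophage genes were compared between the sexes in liver, where 10.5% of all genes in controls and 12.4% at the low dose were higher in females. Lower in females were 12.3% of all genes in controls and 11.9% at the low dose. In controls 7 of 22 tested genes were higher and 0 lower in females, with a median of 0.36 beside an all-gene median of 0.00. Mertk, a receptor for engulfing dead cells, was 1.20 ± 0.11 and Maf, a transcription factor of macrophages, 0.74 ± 0.13. Cybb, the oxidase subunit gene, was 0.79 ± 0.22 and Mrc1, the mannose receptor gene, 0.48 ± 0.15. Of 9 tested Kupffer cell genes Cfp, which encodes properdin, was higher in control females (0.53 ± 0.17), a share near that of all genes. In low-dose females 5 of the 9 were higher, led by Id3 (0.91 ± 0.18), Cfp (0.82 ± 0.17), Il18bp (0.80 ± 0.17) and Hmox1 (0.93 ± 0.22). Endothelial markers also differed in controls, with 2 of 8 higher (Kdr 0.56 ± 0.14, Stab2 0.69 ± 0.25), summing to 113 to 303 CPM in males and 248 to 366 in females. Of 8 fibroblast and stellate cell genes Col1a1 (-1.42 ± 0.29) and Col3a1 (-0.74 ± 0.14) were lower in control females, with sums of 204 to 525 CPM in males and 160 to 361 in females. Of 9 hepatocyte genes 4 were lower in control females, led by Ttr (-1.28 ± 0.15), with sums of 122195 to 143242 CPM in males and 128968 to 182114 in females. At the low dose 0 of 8 endothelial genes were called by edgeR, with a median of 0.02 and sums of 220 to 284 CPM in males and 153 to 332 in females. There 3 of 8 fibroblast and stellate cell genes were lower in females, with a median of -0.59. They were Col1a1 (-1.64 ± 0.29), Col3a1 (-0.80 ± 0.15) and Pdgfrb (-0.62 ± 0.18), and the list summed to 313 to 585 CPM in males and 145 to 398 in females. The 5 tested smooth muscle genes had a median of -0.73 with none called. Their part in the member differences was not tested.

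**Figure D4:**
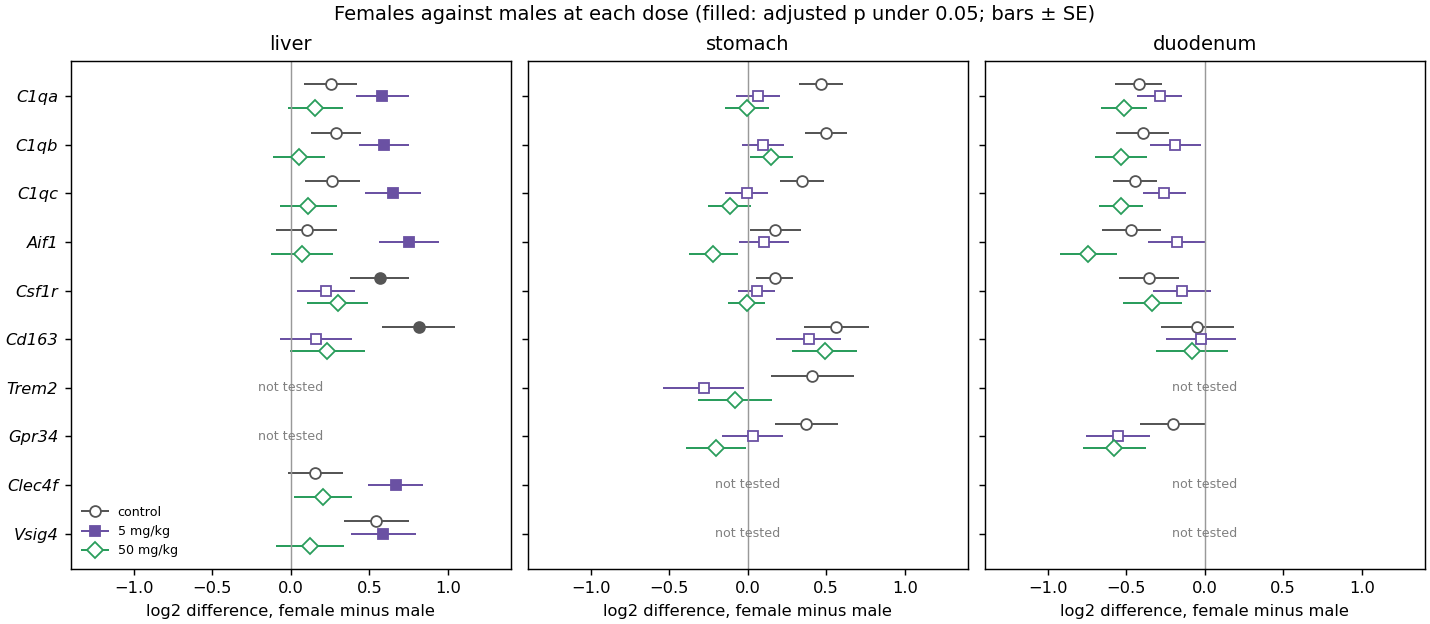
Log2 difference, female minus male, with ± SE bars at control (circles), 5 mg/kg (squares) and 50 mg/kg (diamonds) in each tissue; filled symbols have an adjusted p under 0.05. Liver has Cd163 and Csf1r filled in controls and 6 other genes at 5 mg/kg, and every duodenum value lies below 0.

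In duodenum no member was called for any dose, although 8.76% of 15189 genes rose and 7.58% fell at the high dose over both sexes. Gpr34 was 2.22 to 8.32 CPM in the 15 controls (median 4.62) and 3.45 to 13.7 in the 16 high-dose libraries (median 5.63), a log2 change of 0.34 ± 0.14 (adjusted p = 0.0937). The ranges overlapped widely. It was the only member with an unadjusted p under 0.05, and no call came from DESeq2 or limma voom. Aif1 had 0.24 ± 0.13, and C1qa, C1qb and C1qc had 0.07, -0.00 and 0.15. The median of the 7 was 0.08 and that of all genes -0.02. Of 23 further macrophage genes tested 2 rose and 2 fell, with a median of -0.05. Lyz2 (0.75 ± 0.18) and Cd86 (0.48 ± 0.16) rose, and Maf (-0.61 ± 0.18) fell. Trem2, under the filter, had 0 to 0.586 CPM in controls (median 0.227) and 0.254 to 0.762 at the high dose (median 0.390). At the low dose, in either sex alone and by sex, no member was called by edgeR, DESeq2 or limma voom (0% of all genes in each by edgeR). Of these, high-dose males alone had members at an unadjusted p under 0.05, namely Gpr34 and Aif1. Between the high and the low dose Gpr34 differed by 0.50 ± 0.14 (adjusted p = 0.332), with no member called by any of the 3 tools.

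In duodenum the differences between the sexes were negative. In controls C1qa was 63.1 to 168 CPM in males (median 107) and 52.8 to 124 in females (median 72.1), and 1 of 7 females lay above the male median. The log2 difference was -0.42 ± 0.15 (adjusted p = 0.62). All 7 tested members had negative values, from -0.47 to -0.05, and none was called (0.079% of all genes were; 4 members at an unadjusted p under 0.05; 0 by DESeq2 and limma voom). In stomach controls all 8 values were positive, from 0.17 to 0.56, with none called by edgeR (0.172% of all genes; 4 at an unadjusted p under 0.05; 0 by DESeq2, 3 by limma voom). At the low dose 6 of the 8 stomach values were positive, with a median of 0.06, and at the high dose 2 of 8, with a median of -0.05. By edgeR, DESeq2 and limma voom no member was called at either dose (0.231% and 0.244% of all genes by edgeR), with 0 and 1 members at an unadjusted p under 0.05. At the high dose the duodenum Aif1 was 23.3 to 78.7 CPM in males (median 40.7) and 20.1 to 39.9 in females (median 30.2), and no female reached the male median. Its difference was -0.74 ± 0.18 (adjusted p = 0.0867). C1qa, C1qb, C1qc and Gpr34 likewise had 0 of 8 high-dose females above the male median, with differences from -0.58 to -0.51, and were not called. There 0.079% of all genes were called, 5 members had an unadjusted p under 0.05, and calls numbered 2 by DESeq2 and 0 by limma voom. Acinar genes, high in some duodenum libraries, had a median sex difference of 3.74 in controls with 0 of 5 called. Their part was not tested.

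The sex difference was compared between tissues in 1 fit over the controls, chosen after the data were seen. Between liver and duodenum it differed for Csf1r by 1.02 ± 0.30 (adjusted p = 0.0236), C1qa by 0.74 ± 0.22 (adjusted p = 0.0296) and C1qb by 0.78 ± 0.24 (adjusted p = 0.0346). These 3 of 9 were called where 3.52% of all genes were called in this direction and 3.77% in the other. C1qc had 0.73 ± 0.24 (adjusted p = 0.0539). Between stomach and duodenum C1qa had 0.92 ± 0.22 and C1qb 0.96 ± 0.24 and no gene of 16033 was called (0%; adjusted p = 0.205 and 0.264). There 4 members had an unadjusted p under 0.05, and DESeq2 called 0. Between liver and stomach no member was called by edgeR or DESeq2, with 1 at an unadjusted p under 0.05, where 8.59% of genes were called. Without the batch term 0 of the 3 between liver and duodenum were called.

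Among libraries of 1 tissue many members varied together after sex, dose and batch were taken out. Residual log2 CPM was correlated for 77 pairs over the 3 tissues, with two-sided permutation p of 100000 resamples, adjusted over the 77. In liver (n = 46) C1qa and C1qb had a Pearson r of 0.93 and a Spearman rho of 0.92 (p = 1e-05 for each, the smallest the resamples can give). Without the 2 libraries farthest from the median, r was 0.91, and it was 0.94 within batch 1 and within batch 2. The same pair had r = 0.82 in stomach (n = 48; rho 0.78, p = 1e-05) and 0.91 in duodenum (n = 47; rho 0.88, p = 1e-05). In stomach it was 0.73 without 2 libraries, 0.58 in batch 1 and 0.90 in batch 2, and in duodenum 0.90, 0.91 and 0.94.

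A second tight pair was Csf1r with Cd163. Their r was 0.83 in liver (rho 0.83, p = 1e-05; 0.79 without 2 libraries, 0.74 and 0.86 in batches 1 and 2). It was 0.61 in stomach (p = 2e-05; rho 0.60, p = 1e-05; 0.64 without 2 libraries, 0.54 and 0.68 by batch) and 0.72 in duodenum (rho 0.68, p = 1e-05; 0.66 without 2 libraries, 0.81 and 0.65 by batch). Aif1 had r = 0.71 to C1qa, 0.04 to Csf1r and -0.11 to Cd163 in liver. The same 3 values were 0.51, 0.18 and 0.00 in stomach and 0.83, 0.40 and -0.04 in duodenum, where the pair with Csf1r passed (adjusted p = 0.01). The Kupffer receptor genes Clec4f and Vsig4 had r = 0.84 and 0.73 to C1qa. Of the pairs 22 of 28 passed in liver, 12 of 28 in stomach and 14 of 21 in duodenum, with a median r of 0.64, 0.23 and 0.48. Libraries share their depth and the make-up of the tissue piece, so these values describe covariation between libraries. The share of all gene pairs that would pass was not computed, so the counts cannot be read as particular to the members.

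Trem2 and Gpr34, both higher at the high dose in stomach, had a low correlation among its libraries. Their residual r was 0.06 (rho -0.03, p = 0.68), and -0.03 without 2 libraries, 0.13 in batch 1 and 0.09 in batch 2. Trem2 had r between -0.02 and 0.24 to every other member there, and Gpr34 between -0.03 and 0.29. At counts this low a weak correlation is no finding.

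**Figure D5:**
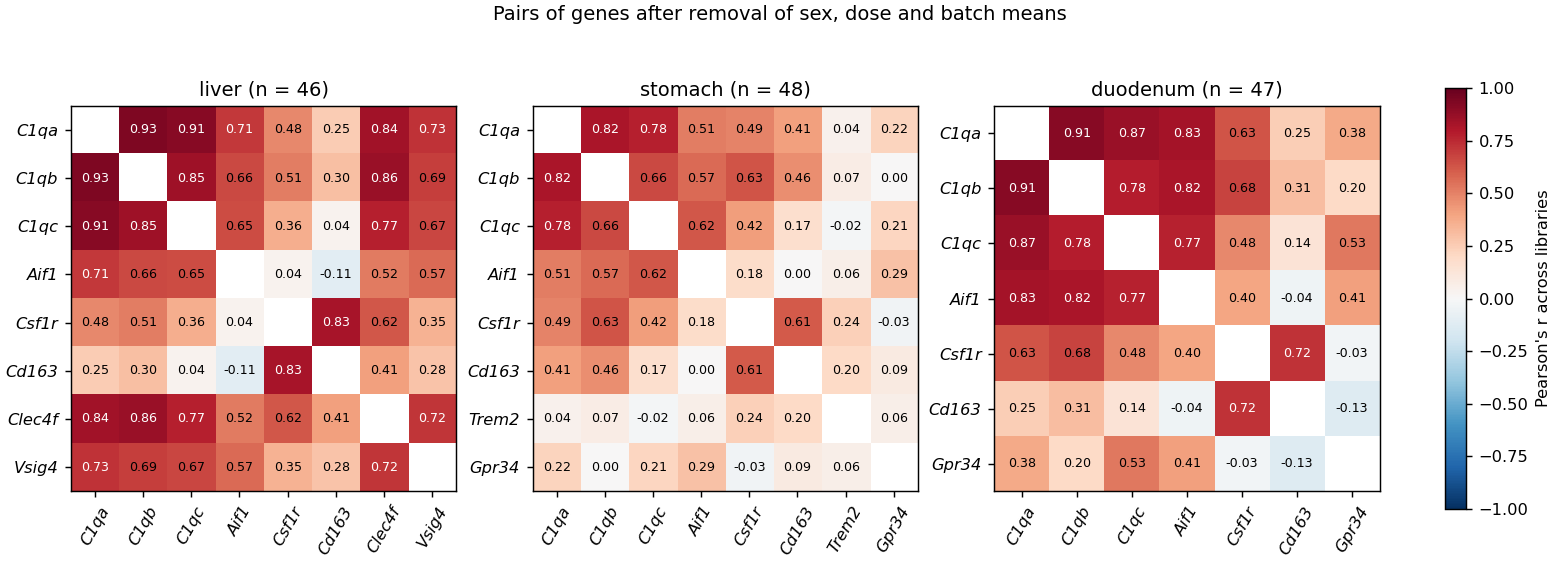
Pearson's r between genes across libraries of each tissue, from log2 CPM after the means of sex, dose and batch were removed, on a colour scale from -1 to 1. C1qa, C1qb and C1qc form a block of high values in each tissue, Csf1r pairs with Cd163, and Trem2 and Gpr34 stand apart in stomach.

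The genes most like the members were found from the correlation with the mean of the tested members. In liver (46 libraries) these were Ctss (r = 0.91), which encodes cathepsin S, Lgmn (0.86), Ms4a6a (0.84), Cfp (0.83), Cd5l (0.82), Napsa (0.80), Ifit3 (0.80), Pld4 (0.80), Ptgs1 (0.79) and Ccl6 (0.79). In stomach (48 libraries) they were Fcgr2al1 (0.75), Ms4a6a (0.72), Clec10a (0.69), Pf4 (0.69), Ctss (0.69), F13a1 (0.68), Rhoc (0.67), Fcna (0.67), RT1-Ba (0.66) and RT1-Da (0.66). In duodenum (47 libraries) they were Vsir (0.81), Cfp (0.80), Tcf21 (0.80), Pld4 (0.78), Gbp2 (0.76), Cpq (0.74), Igfbp7 (0.74), Dkk3 (0.74), Cyth4 (0.73) and Abi3 (0.72). Ctss and Ms4a6a appear for both liver and stomach, and Cfp and Pld4 for both liver and duodenum.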

How the data were processed

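Polyadenylated RNA of 141 libraries was measured. The authors deposited estimated counts for each gene, in a table for every tissue. Among the tools listed in the submitters' processing notes are UMI-tools 1.1.5, STAR 2.7.11b and Salmon 1.10.3, and the build is mRatBN7.2. What each tool did, the strand setting and any removal of duplicates are not stated there. Without a stated strand setting, reads of overlapping genes cannot be told apart.

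Counts were rounded to whole numbers. Per tissue, genes passed filterByExpr of edgeR 4.0.16 (minimum count 10, minimum total 15), were scaled by TMM and fitted by glmQLFit with a term for each sex and dose group and for batch; p-values from glmQLFTest were adjusted (Benjamini and Hochberg) across the genes tested. Of the members 8 were tested in liver, 8 in stomach and 7 in duodenum. An adjusted p under 0.05 is a call, and SE is from the fit. Tissues were compared in 1 such fit over controls. Fits were tested on simulated data. Members and lists were chosen with earlier results of these data known. Named besides the members were, per list, up to 4 called genes with the smallest p, or up to 2 where none was called. For some lists fewer or none were named. The 10 genes most correlated per tissue were also named. Alternatives were DESeq2 1.42.0, its size factors in edgeR, limma 3.58.1 voom with quality weights, no filter, no batch term, a replicate block, 3 surrogate variables (sva 3.50.0), the ribosomal protein share, only the groups compared, no batch 3 and each library left out. Sex differences at the 2 doses and between tissues were added after seeing the data. The result of 1 listed gene that is no member is not reported here.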

Additional observations from a re-analysis of the deposited data

Results flagged for a closer look

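Within groups of 6 to 8 libraries, 15 of 138 sets of member values held 1 library far from the rest. The rule flags about 1 in 20 sets of independent, normally distributed values. Member values vary together and their distribution was not checked, so no excess over chance was shown. Male low-dose replicate 7 was high in liver for C1qa (160 CPM, the others 54.7 to 75.9), C1qc (68.7, the others 25.7 to 36.0) and Clec4f (195, the others 99.3 to 132). In stomach the library of that name was high for C1qa (72.2, the others 31.9 to 47.3), C1qc (43.2, the others 18.4 to 29.9) and Aif1 (17.6, the others 10.2 to 12.9). The labels do not say that the number ties the 2 libraries to 1 animal. Each had the highest ribosomal protein share of its group, 1.39% in liver and 4.67% in stomach. In liver, male high-dose replicate 6 was high for C1qa (127 CPM, the others 64.1 to 91.5) and Aif1 (38.7, the others 12.9 to 23.4). Female high-dose replicate 4 was high there for C1qb (72.2, the others 32.8 to 45.6) and Clec4f (233, the others 152 to 174). The ribosomal protein share was 2.49% in the male library, the highest of its group. In the female library it was 1.30%, in a group that spanned 1.01% to 1.84%. The part of this share was not tested.

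In stomach, Csf1r was low in male control replicate 4 (19.6 CPM, the others 28.5 to 35.2) and high in male high-dose replicate 1 (50.98, the others 23.2 to 36.1). In duodenum, male high-dose replicate 5 was high for Aif1 (78.7 CPM, the others 23.3 to 47.9) and Gpr34 (13.7, the others 4.48 to 8.51). Male control replicate 3 was high for Cd163 (45.6, the others 11.5 to 25.3). The ribosomal protein share was 7.53% in this high-dose library, the highest of its group, and 2.98% in this control. In the stomach libraries it was 1.81% in the control, the lowest of its group, and 2.69% in the high-dose male. The difference between the sexes in controls also differed between liver and duodenum by the test of that difference, by 0.74 for C1qa, 0.78 for C1qb and 1.02 for Csf1r on the log2 scale.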

How the results depend on the processing

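In stomach, the call of 2 members at the high dose over both sexes and of 5 in males became 0 and 0 in each of these settings: the ribosomal protein share as covariate, 3 surrogate variables, and no batch term; the cause was not tested. In males it was 3 with no filter on low counts and 2 with only the groups compared. Over all 10 such alternatives the change over both sexes ran from 0.69 to 0.82 for Trem2 and from 0.39 to 0.76 for Gpr34. Leaving out 1 library at a time gave 0 to 4 over both sexes (0 without male high-dose replicate 4, 4 without male control replicate 8) and 2 to 5 in males (2 without male control replicate 4 or male high-dose replicate 2, 3 or 4, and 3 without male control replicate 2 or male high-dose replicate 6). All-gene calls with 1 library left out ran from 4 to 1465 over both sexes and from 275 to 1631 in males. Between high and low dose the count of 0 became 2 with DESeq2, 1 with limma voom and 1 with only the groups compared. It was 0 to 2 with 1 library left out, where 10 to 421 of all genes were called. Between the sexes in stomach controls limma voom called 3 in place of 0.

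In liver, the low dose by sex had 2 calls with limma voom and 1 with only the groups compared, in place of 0, and 0 to 1 with 1 library left out. The 2 calls between the sexes in controls became 1 to 3 with 1 library left out, where 2234 to 3330 of all genes were called. The 6 at the low dose became 3 with surrogate variables and 3 with the ribosomal protein share. In duodenum, high dose against control gave 0 to 1 (1 without male control replicate 3), and the sexes at the high dose gave 0 to 1 (1 without male high-dose replicate 6), 1 with surrogate variables and 2 with DESeq2. The sex difference between liver and duodenum, 3 calls, became 0 without the batch term and 1 to 5 with 1 library left out. Liver against duodenum had 9 calls, and 5 in male controls only; the cause was not tested. On library totals without TMM it turned to -0.60 for Aif1, -0.37 for C1qb, -0.31 for C1qc, -0.22 for C1qa and -0.29 for Csf1r. Stomach correlations passed in 12 pairs, and in 4 in batch 1 alone, which holds fewer samples.

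Replicate numbers were not taken to pair libraries. Within each tissue, the only place checked, same-numbered libraries had a median correlation of -0.0088 in liver, 0.032 in stomach and 0.0038 in duodenum, and 4 of 46, 14 of 48 and 6 of 47 correlated best with their own number (8.70%, 29.2% and 12.8%, where 12.5% of the pairs between groups share a number in each tissue). The replicate block gave 1 call between high and low dose in stomach in place of 0, and 1 in place of 3 for the sex difference between liver and duodenum. Trem2 had only 4 to 25 counts a library in the male stomach groups compared, which limits the precision of its level. Values of the members called in the main fits were followed under all alternatives, including each library left out. Of these, 1119 kept their direction and their call, 108 kept their direction but were no longer called, and 5 changed sign. They include the contrasts with liver in which Clec4f, Vsig4 and Gpr34 had to differ. For high-dose males in stomach, 10 alternatives left out no single library. Trem2 and Gpr34 were called in 7 of them, C1qc in 6, Aif1 in 5 and C1qa in 4.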
